A study of Homo sapiens with 12 samples.

Results

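The guanylate-binding genes GBP1, GBP2, GBP3, GBP4 and GBP5 are 5 of the 58735 genes in the count table, and they lie side by side on chromosome 1. They were chosen by name, because GBP1 had been seen to be lower with GFI1 while other interferon-response genes were higher, so the values that compare GFI1-expressing with control cells are given here as a description without a test. The data went only partly with that choice. GBP1 and GBP2 were lower in GFI1-expressing cells, GBP3 and GBP4 were higher, and GBP5 stayed at or near 0 counts in all 12 libraries.

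Guanylate-binding proteins are large GTPases of the dynamin superfamily. They are known as strong targets of interferon gamma, whose signal runs through its receptor, the kinases JAK1 and JAK2 and the transcription factor IRF1. Inside the cell the proteins coat vacuoles and bacteria and help to start caspase-dependent cell death, and GBP1, GBP2 and GBP5 carry a CaaX box at their end that is prenylated so that they can attach to membranes.

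The cells were A549, an established line from a human lung adenocarcinoma that grows attached. The RNA-Seq libraries fell into 4 groups of 3: attached control, attached GFI1-expressing, floating control and floating GFI1-expressing cells. GFI1, a zinc-finger repressor normally found in blood progenitors, was introduced by the authors with a lentiviral vector that drives it from the human PGK promoter and also carries GFP, and GFP-positive cells were sorted for RNA-Seq. What vector the control cells received was not given in the labels. The floating cells had been kept in suspension on low-attachment plates for 48 hours, and all cells grew in the same medium with serum. No interferon treatment is named in the labels. The labels number the replicates but do not say whether they were separate cultures, so the tests measure the spread between these libraries, which may be technical.

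Total counts ran from 17014188 to 20748677 per library. Values are given as counts and as CPM, which are counts divided by the library's size after TMM scaling, and 3 counts, the level below which a gene was treated as not detectable, corresponded to between 0.138 and 0.181 CPM. Intervals on ratios of counts cover counting error only. GFI1 itself was at 0.471 ± 0.206 CPM in attached control and 290.1 ± 4.4 CPM in attached GFI1-expressing libraries (SD, n = 3), and at 0.624 ± 0.125 and 560.1 ± 138 CPM in the floating ones, where the GFI1-expressing libraries ran from 430.2 to 705.5 CPM. The epithelial genes KRT8, KRT18, EPCAM and CDH1 were expressed in all libraries, KRT19 had between 13 and 89 counts per library, CD14 was the only gene of the 6 on the blood cell marker list with enough counts to be tested, and CDKN2A, a gene deleted in A549, had at most 1 count. Of the 5 epithelial markers, 4 were called lower with GFI1 in both states, beside 32.8% of all genes in attached and 31.1% in floating cells. CDH1 was lowest, at -4.22 ± 0.07 in attached cells (log2 fold change ± SE). The other marker, KRT19, was called higher in attached cells, at 0.82 ± 0.32 (edgeR adjusted p = 0.0314), and was at 0.57 ± 0.29 in floating cells. The attached call was lost without attached control replicate 1 or 3 or attached GFI1 replicate 2 or 3 (adjusted p up to 0.155). The part of these markers in the results was not tested. Floating GFI1 replicate 3 stood apart from replicates 1 and 2 of its group on the second principal component (-13.6 against -20.6 and -23.9), so results that rest on it are given with and without it.

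Promoters of interferon genes are known for a response element bound by IRF factors, and the stretches that match it are shown because members that moved in opposite directions share it. RefSeq windows of 300 bases (250 before and 50 after the annotated start, build GRCh38.p14) were found for GBP1, GBP3 and GBP4. Each held 1 match to the core of the interferon-stimulated response element (GAAA, any 2 bases and GAAA again) on the strand opposite to the gene. The stretches of 30 bases around the match are printed 5′ to 3′ on the gene strand (minus), with the 10 bases of the match in capitals.

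GBP1, chr1:89065316-89065345: aacgaagtacTTTCAGTTTCatattactct
GBP3, chr1:89022845-89022874: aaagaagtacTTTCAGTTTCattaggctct
GBP4, chr1:89198927-89198956: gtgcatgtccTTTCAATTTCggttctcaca

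The 10 matched bases were the same in GBP1, which was lower with GFI1, and in GBP3, which was higher. The match lay from 127 to 118 bases before the annotated start in GBP1 and from 3 to 12 bases after it in GBP3, and in GBP4 it spanned the start. The windows of GBP1 and GBP3 aligned over 144 columns with 79.9% identity, with the starts annotated at different places of the aligned stretch. Over all 35116 promoter windows of RefSeq, 3.57% held the element. The lists were counted by gene, where a match in any window of the gene was enough. So counted, 25 of 33 genes of the type I interferon response list that had a window (46 windows) held it. In the interferon gamma response list 15 of 24 such genes (28 windows) did. A share of windows and a share of genes are unlike measures. The gamma-activated site, TTCNNNGAA, was matched only in GBP3 among these members, as TTCCTTGAA from 15 to 7 bases before its start, and 7.66% of all windows held it. The core of the GFI1 motif, AATC on either strand, was matched 6 times in the GBP1 window and 2 times each in those of GBP3 and GBP4, a motif so short that 69.0% of all windows held it at least once.

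The window of GBP1 before its annotated start is given in full, because it is the member for which the group was chosen, with the response element in capitals.

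GBP1, chr1:89065209-89065458: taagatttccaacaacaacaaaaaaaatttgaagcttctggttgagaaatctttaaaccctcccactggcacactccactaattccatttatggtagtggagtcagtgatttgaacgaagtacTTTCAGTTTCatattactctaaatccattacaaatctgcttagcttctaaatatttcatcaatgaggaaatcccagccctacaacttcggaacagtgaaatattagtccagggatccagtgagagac

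These windows show which letters are present, and they carry no measurement of binding.

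On chromosome 1 the genes follow each other in the order GBP3 (ENSG00000117226, 89006666 to 89022894), GBP1 (ENSG00000117228, 89052319 to 89065360), GBP2 (ENSG00000162645, 89106132 to 89150456), GBP7, GBP4 (ENSG00000162654, 89181148 to 89198932) and GBP5 (ENSG00000154451, 89258950 to 89272804), all on the minus strand of hg38. GBP1 thus lies between GBP3, which moved the other way, and GBP2, which moved the same way. The coding sequences of GBP1 and GBP3 were 91.6% identical, those of GBP1 and GBP2 82.4%, and those of GBP1 and GBP4 66.3%. Of the 50-base windows of the GBP1 transcript, 14.0% were found unchanged in GBP2, GBP3 or the pseudogene GBP1P1, against 4.18% for GBP3, 1.66% for GBP2 and 0.312% for GBP4. At 100 bases, 1.98% of GBP1 windows were shared, with GBP1P1 alone. Reads from such stretches could have been given to either copy or left out by the counting, and among the members GBP1 has the largest shared part. GBP2 overlaps GBP7 on the same strand by 18706 bases.

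GBP3 was the most abundant member in GFI1-expressing cells and was higher there than in control cells. Its protein is close to GBP1 in sequence. Counts were 62, 96 and 83 in the attached control libraries and 555, 712 and 613 in the attached GFI1-expressing ones. In floating cells they were 82, 88 and 77 in control and 501, 515 and 550 in GFI1-expressing libraries. The GFI1 libraries did not overlap with the control libraries in either state. On the CPM scale, means were 4.56 ± 0.78 and 31.6 ± 1.1 in attached, and 4.84 ± 0.47 and 27.8 ± 0.54 in floating cells (SD, n = 3). The difference was 2.79 ± 0.098 (log2 fold change ± SE) in attached and 2.52 ± 0.099 in floating cells, or 6.90-fold and 5.74-fold higher with GFI1.

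GBP4, a member without a prenylation box, was at or near 0 in control cells and well above it with GFI1. No read was counted in any attached control library, whereas the attached GFI1-expressing libraries held 82, 98 and 95 counts, at 4.63 ± 0.12 CPM (SD, n = 3). Floating control libraries held 0, 0 and 2 counts and floating GFI1-expressing libraries 57, 76 and 78, at 3.74 ± 0.54 CPM. Against a floor of 3 counts in each control library, GBP4 was at least 27.1-fold higher with GFI1 in attached cells. In floating cells the ratio was 95.7, with a 95% counting interval from 26.2 to 795. Each floating control library was below 3 counts, and both control counts came from replicate 3, so that no ratio can be given without it.

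In control cells GBP2 and GBP3 were the most abundant members, and GBP2 was lower with GFI1. It is a prenylated member that acts with GBP1 on vacuoles and bacteria. The attached control libraries had 91, 94 and 81 counts and the attached GFI1-expressing ones 23, 20 and 21. The floating control libraries had 125, 118 and 133 and the floating GFI1-expressing ones 20, 19 and 36. Every control library was above every GFI1 library, although the 36 counts of floating GFI1 replicate 3 stood above the rest of its group. Mean CPM was 5.06 ± 0.39 against 1.09 ± 0.19 in attached and 7.35 ± 0.22 against 1.31 ± 0.41 in floating cells (SD, n = 3). The log2 difference was -2.22 ± 0.20 in attached and -2.46 ± 0.19 in floating cells (± SE), and -2.77 in floating cells without floating GFI1 replicate 3.

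GBP1, the best-known member and the one that first binds bacterial lipopolysaccharide, was expressed at a low level already in control cells. Counts were 12, 19 and 19 in attached control and 3, 2 and 3 in attached GFI1-expressing libraries. In floating cells they were 12, 10 and 11 in control and 3, 1 and 6 in GFI1-expressing libraries. No control library overlapped with a GFI1 library, but the attached GFI1 group lay at the floor of 3 counts. The ratio of control to GFI1 was 7.05 in attached cells, with a counting interval from 3.32 to 17.2. In floating cells it was 3.64 (interval 1.75 to 8.28). The fitted log2 differences were -2.75 ± 0.48 and -1.83 ± 0.50 (± SE), and the floating value was -2.48 without floating GFI1 replicate 3.

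GBP5, a prenylated member tied to inflammasome assembly, gave 0, 0 and 0 counts in attached control, 3, 2 and 2 in attached GFI1-expressing, 5, 0 and 1 in floating control and 3, 3 and 1 in floating GFI1-expressing libraries. It was too low to be tested. The attached GFI1 libraries lay above the attached control libraries, all of them at or below 3 counts, and the floating groups overlapped.

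Of the 5 members, 4 passed the filter on low counts, GBP4 only through its GFI1 libraries and GBP1 only through its control libraries. By edgeR's quasi-likelihood test at an adjusted p of 0.05 or less, 2 were called higher and 2 lower in both states. Among all 17829 genes tested, 62.3% were called in attached cells (29.5% higher, 32.8% lower) and 60.4% in floating cells (29.3% higher, 31.1% lower). Since the members were picked on this difference, nothing is read from the counts. Of the called genes, 47.4% were higher in attached and 48.5% in floating cells, and 61.5% and 61.4% when libraries were scaled by their size alone, which moved the median of all genes to 0.14 in both states and no member to another direction.

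**Figure D1:**
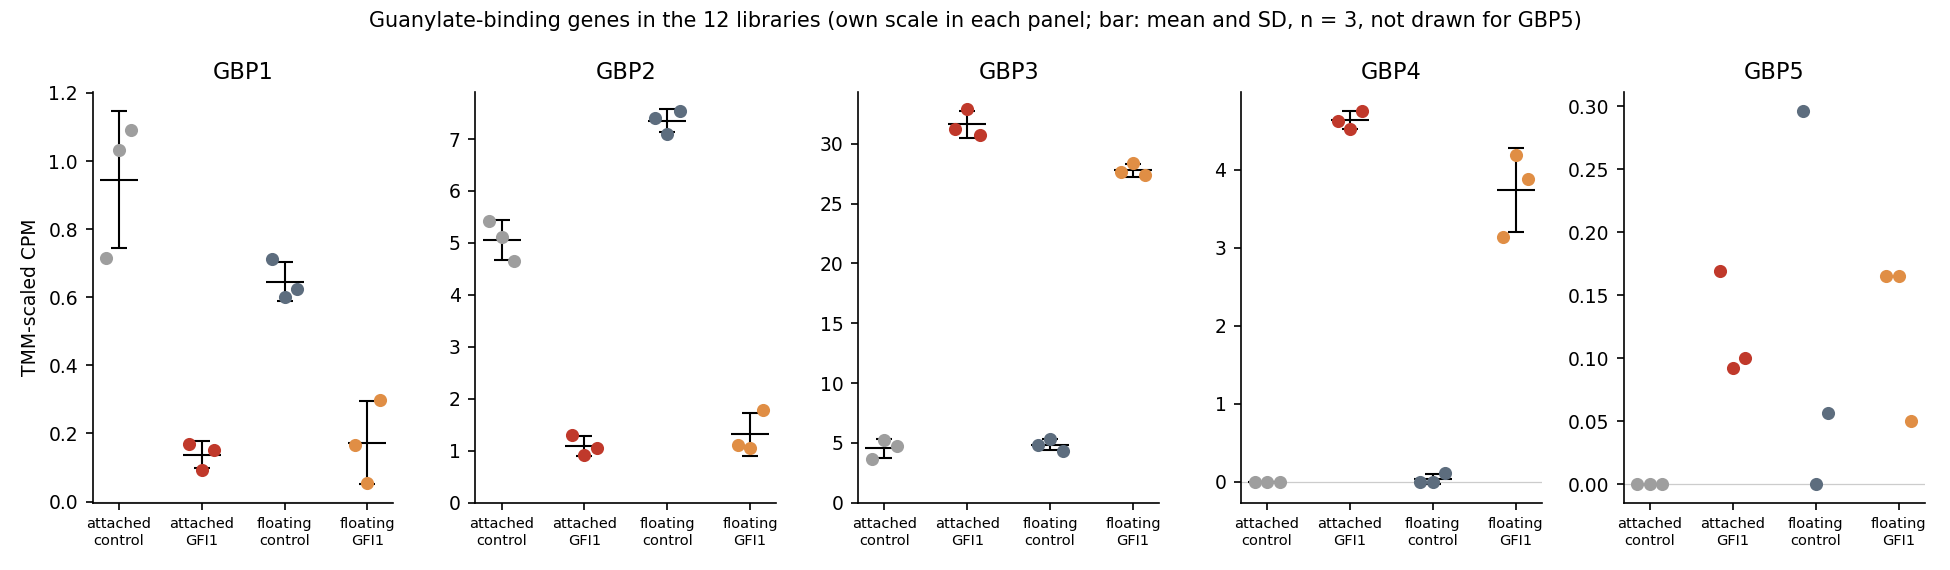
TMM-scaled CPM of GBP1 to GBP5 in each library, by group (points, one panel and one vertical scale per gene; the black bar is the mean and SD of 3 libraries, left out for GBP5). GBP3 and GBP4 stand higher and GBP1 and GBP2 lower in the GFI1-expressing libraries, and GBP5 lies at 5 counts or fewer everywhere.

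Both the sum of the family and its make-up differed with GFI1. The summed CPM of GBP1 to GBP5 lay between 9.83 and 13.3 among the 6 control libraries, and with GFI1 it lay between 32.2 and 38.5 among 6. Per gene length, GBP3 made up 51.3% ± 4.6 and GBP2 39.5% ± 5.9 of the family in attached control cells (SD, n = 3), followed by GBP1 with 9.16% ± 1.4. In floating control cells GBP2 made up 47.9% ± 2.6 and GBP3 46.0% ± 3.4. The ranges of GBP2 and GBP3 overlapped in both control groups, so their order was not set beyond the spread. In attached GFI1-expressing cells GBP3 made up 88.3% ± 0.87, GBP4 9.09% ± 0.46, GBP2 2.09% ± 0.39 and GBP1 0.331% ± 0.10, and these ranges were apart from each other. Floating GFI1-expressing cells had nearly the same order, with 88.2% ± 1.5 for GBP3 and 8.30% ± 1.0 for GBP4. The ratio of GBP3 to GBP2 in CPM per kilobase was between 0.846 and 1.5 in control libraries and between 22.3 and 52.0 in GFI1-expressing libraries. The lowest of the latter was floating GFI1 replicate 3, and the others of its group were at 36.6 and 39.6.

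**Figure D2:**
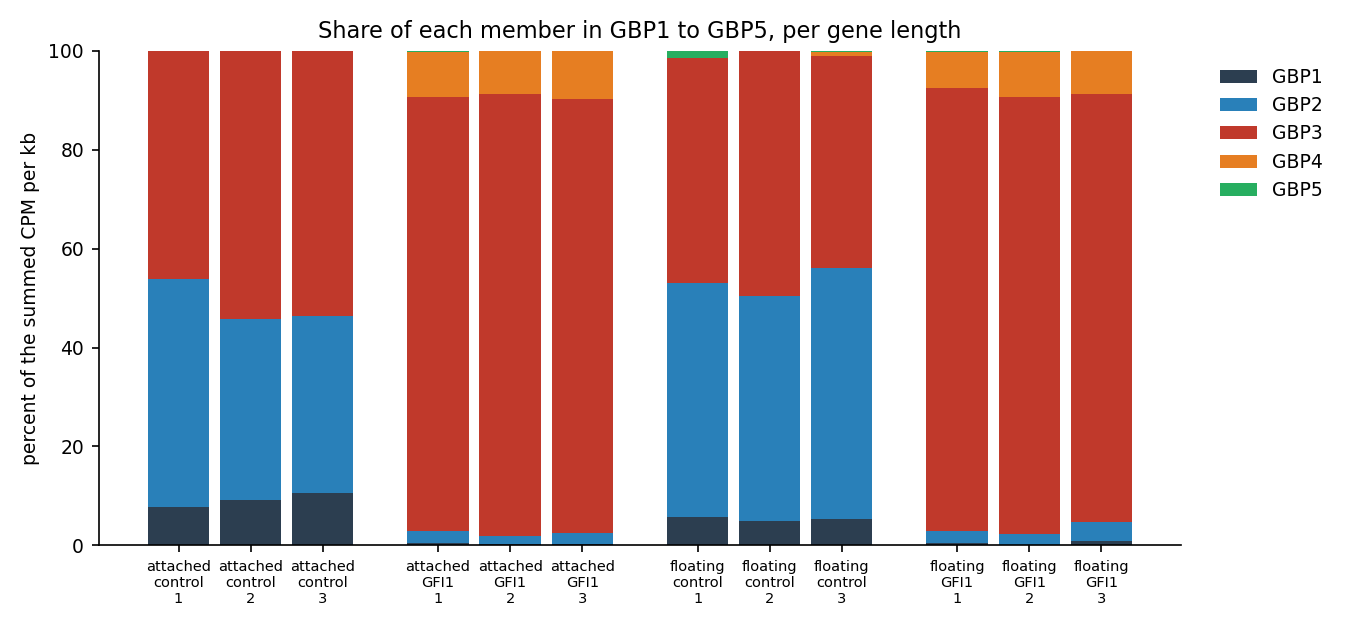
Share of each member in the summed CPM per kilobase of GBP1 to GBP5, with 1 bar for each of the 12 libraries. GBP2 and GBP3 share most of the signal in control libraries, while GBP3 takes between 86.6% and 89.7% in GFI1-expressing libraries, where GBP4 follows.

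The rest of the family was near the limit of detection. GBP7 had at most 1 count in any control library, and 4, 1 and 6 counts in attached and 3, 7 and 7 counts in floating GFI1-expressing libraries. The pseudogene GBP1P1 had no count in the control libraries, and 2, 1 and 5 counts in attached and 5, 4 and 3 in floating GFI1-expressing libraries. GBP6 gave 1 count in 1 library. These genes share stretches with the members: 24.7% of the 50-base windows of GBP7 were found in GBP2 or GBP4, and part of its few counts may belong to them.

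Keeping the cells in suspension moved the members far less. The members were not chosen on this comparison, although it uses the same libraries as the one they were chosen on. In control cells GBP2 rose by 0.54 ± 0.15 on the log2 scale (± SE, 95% interval 0.22 to 0.86, 1.45-fold), with every floating library above every attached one. It passed the test (edgeR adjusted p = 0.00658), as did 19.6% of all genes in that direction and 40.1% in either. GBP2 was the only member called. GBP3 was at 0.08 ± 0.13 (adjusted p = 0.682), and GBP1 at -0.55 ± 0.37 (interval -1.32 to 0.22, adjusted p = 0.259). The CPM ranges of GBP1 in the groups all but touched. The lowest attached library had 0.715 CPM and the highest floating one 0.711, each from 12 counts. GBP4, with 0 and 2 counts in the groups, gives no ratio.

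In GFI1-expressing cells no member passed the edgeR test for suspension, where 31.3% of all genes were called. DESeq2 called none of GBP2, GBP3 and GBP4, and GBP1 had no usable result there. GBP3 was lower by a small step, at -0.19 ± 0.075 (interval -0.34 to -0.031, unadjusted p = 0.0210, adjusted p = 0.0632), and its groups did not overlap. This was the single member with an unadjusted p under 0.05, and its call depended on the samples fitted (adjusted p = 0.0292 with only the groups compared, and 0.0419 without attached control replicate 1). GBP4 was at -0.31 ± 0.20 (adjusted p = 0.260), GBP2 at 0.30 ± 0.25 (0.414) and GBP1 at 0.37 ± 0.66 (0.723). Without floating GFI1 replicate 3, GBP2 was at -0.0060 and GBP1 at -0.28. GFI1 itself rose by 0.95 ± 0.095 with suspension in these cells, or 1.93-fold, and passed the test.

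The interaction, which asks whether the GFI1 effect differed between floating and attached cells, was called for no member by edgeR. No unadjusted p was under 0.05, while 10.8% of all genes were called. The edgeR value was -0.27 ± 0.15 for GBP3 (interval -0.58 to 0.046, adjusted p = 0.312), -0.24 ± 0.30 for GBP2 (-0.86 to 0.37, adjusted p = 0.690) and 0.92 ± 0.77 for GBP1 (-0.66 to 2.5, adjusted p = 0.524). DESeq2 called neither GBP2 nor GBP3, while GBP1 had no usable result there and GBP4 was not compared. For GBP1 the interval leaves room for a several-fold difference at these counts. Without floating GFI1 replicate 3, the edgeR interaction was 0.28 for GBP1 and -0.54 for GBP2, and neither was called. GBP4, with 0 and 2 counts over the control groups, gives no value.

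**Figure D3:**
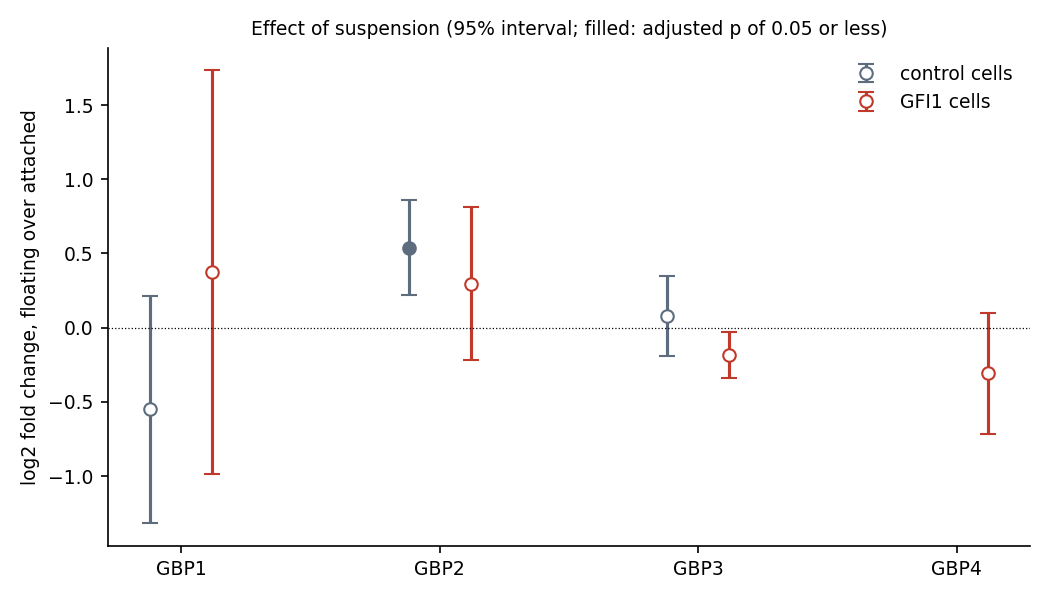
Log2 fold change of floating over attached cells for GBP1 to GBP4, in control (grey) and GFI1-expressing cells (red), with 95% intervals from edgeR; filled points passed an adjusted p of 0.05. GBP2 in control cells, at 0.54, is the filled point, and GBP4 is left out in control cells because its counts were at the floor.

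The interferon genes around the members were, as a body, higher with GFI1, which is part of the reason why the members had been chosen, so the calls below are given as a description and not as independent evidence. Of the 42 genes listed for the type I response, 41 were tested. In attached cells 41 were called higher with a median log2 fold change of 2.46, and in floating cells 40 were called higher with a median of 2.32, where the median of all genes was -0.0066 and 0.011. Among all genes, 29.5% were called higher and 32.8% lower in attached cells, and 29.3% and 31.1% in floating cells. XAF1, a proapoptotic interferon target, gave 1 count over the 3 attached control libraries and 650 over the 3 GFI1-expressing ones. OAS1, a sensor of double-stranded RNA, had the smallest difference in attached cells, at 0.61 ± 0.09. GBP1 and GBP2 were thus lower by more than 2 on the log2 scale in attached cells, where no listed type I gene was called lower (0 by DESeq2 as well, and 0 at an unadjusted p under 0.05). EPSTI1, the gene of that list too low to be tested, gave 8 counts over the attached control and 2 over the attached GFI1-expressing libraries, and 18 and 1 over the floating ones.

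Of the 35 genes listed for the interferon gamma response, which leaves out the members, 30 were tested. In attached cells 26 were called higher and 4 lower (1 when libraries were scaled by their size alone) with a median of 1.51, and in floating cells 25 were higher and 2 lower with a median of 1.34. The background was 29.5% higher and 32.8% lower in attached cells, and 29.3% and 31.1% in floating cells. ICAM1, an adhesion molecule for leukocytes, was the lowest of the list, at -1.51 ± 0.19 in attached and -1.07 ± 0.16 in floating cells. IDO1, which degrades tryptophan, was the highest, with 1 count over the attached control and 438 over the attached GFI1-expressing libraries. The fitted values of GBP1 and GBP2 in attached cells, -2.75 and -2.22, lay below that of ICAM1, and GBP3 at 2.79 lay above the median of either list.

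**Figure D4:**
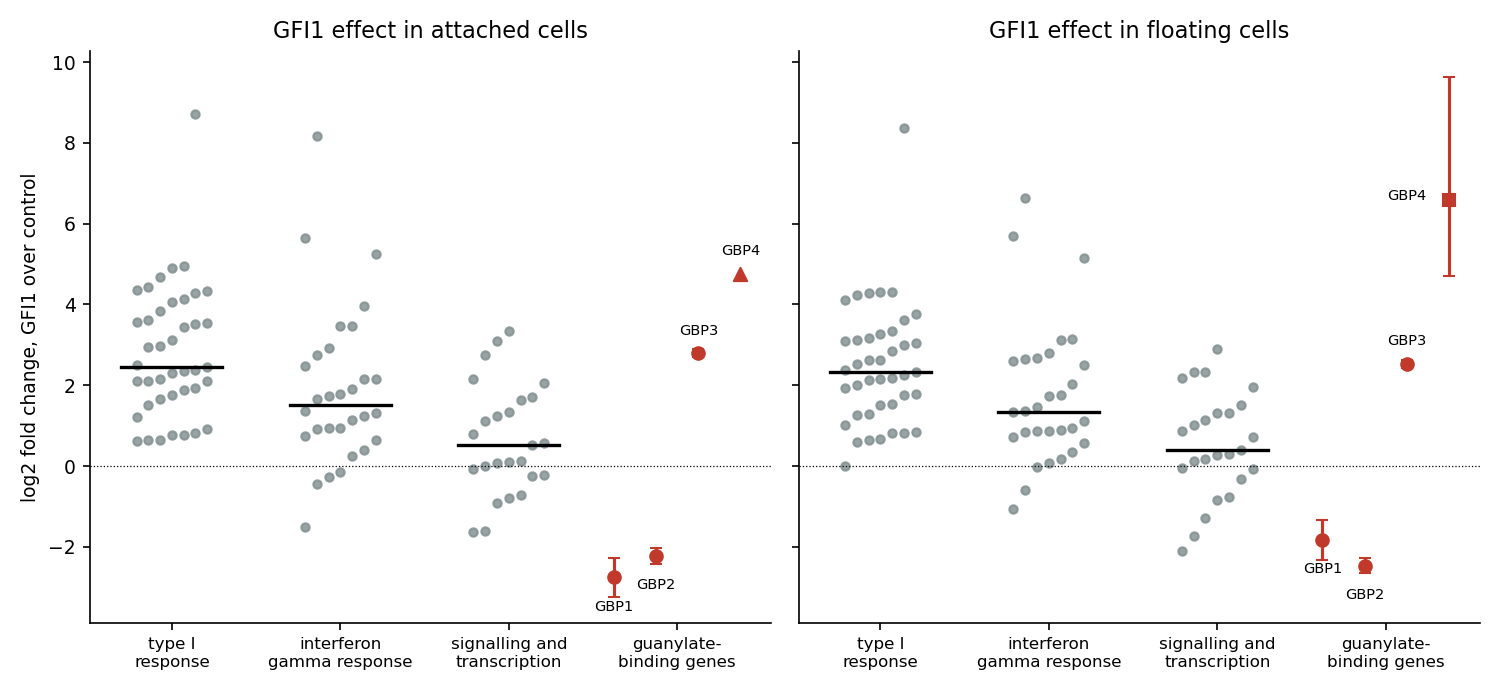
Log2 fold change of GFI1-expressing over control cells for the tested genes of 3 interferon lists (grey points; the black line is the list's median) and for GBP1 to GBP4 (red), in attached and floating cells. Bars are SE for GBP1 to GBP3 and the counting interval for GBP4 in floating cells, and the triangle is the lower bound for GBP4 in attached cells; the highest grey points, XAF1 and IDO1, rest on 2 control counts or fewer per group. GBP1 and GBP2 lie below the points of the type I and interferon gamma lists.

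Of the 8 interferon genes listed, only IFNA1 and IFNE had enough counts to be tested. IFNG had no count in any library, which allows up to 3 counts or 0.138 to 0.181 CPM in each, and IFNB1 had at most 2. IFNE, an interferon of epithelia, had between 68 and 135 counts per library. With GFI1 it was at 0.34 ± 0.17 in attached and -0.16 ± 0.16 in floating cells and was not called, although in attached cells it was 0.49 (adjusted p = 0.0147) with libraries scaled by their size alone, and was also called without attached control replicate 3, attached GFI1 replicate 2 or floating GFI1 replicate 1. With suspension it rose by 0.65 ± 0.16 in control cells (edgeR adjusted p = 0.00234). IFNA1, whose reads can be shared with its near-identical relatives, had between 5 and 19 counts per library. It was called lower with GFI1 in floating cells, at -1.16 ± 0.37 (adjusted p = 0.00863), and rose by 1.26 ± 0.38 with suspension in control cells (adjusted p = 0.00940).

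Of the 6 receptor chains listed, 4 were called lower with GFI1 in both states, beside 32.8% of all genes in attached and 31.1% in floating cells. IFNGR1, the ligand-binding chain of the interferon gamma receptor, was the lowest, at -1.63 ± 0.06 in attached and -2.11 ± 0.06 in floating cells. Its partner IFNGR2 was at -0.25 ± 0.07 and -0.31 ± 0.06, and its attached value was -0.11 and not called (adjusted p = 0.164) when libraries were scaled by their size alone. IFNAR2 was at -0.90 ± 0.25 and -1.28 ± 0.26, and IFNLR1, the receptor for lambda interferons, at -1.61 ± 0.22 and -1.74 ± 0.21. IFNAR1 had 48.6 ± 2.1 CPM in attached control and 51.6 ± 1.4 in attached GFI1-expressing cells (SD, n = 3). In floating cells it had 58.4 ± 0.88 and 55.4 ± 1.2 CPM. IL10RB had 0.660 ± 0.18 and 0.988 ± 0.26 CPM in attached, and 1.15 ± 0.083 and 1.39 ± 0.090 in floating cells.

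Further along the chain, most genes were higher. Among the kinases, JAK2 was at 1.70 ± 0.08 and 1.31 ± 0.08 in attached and floating cells, whereas JAK1 was at -0.21 ± 0.04 and 0.12 ± 0.05. STAT2 was at 1.25 ± 0.06 and 1.01 ± 0.06. IRF1, the transcription factor through which interferon gamma drives guanylate-binding genes, was at 3.11 ± 0.05 and 2.90 ± 0.05. The members went in both directions while IRF1 was higher in both states. IRF2, which competes with IRF1 for its site, was at 1.12 ± 0.07 and 1.14 ± 0.07.

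IRF7 was at 2.75 ± 0.11 and 2.33 ± 0.11 and IRF9, a partner of STAT2, at 2.06 ± 0.18 and 1.51 ± 0.17. BATF2, an interferon-induced partner of IRF1, was at 3.35 ± 0.19 and 2.17 ± 0.16. NLRC5, the activator of MHC class I genes, was at 2.16 ± 0.07 and 1.96 ± 0.07. The inhibitors were split, with SOCS3 at 0.80 ± 0.07 and 0.88 ± 0.07 and the phosphatase PTPN2 at -0.73 ± 0.07 and -0.83 ± 0.07. Over the 25 of 26 signalling and transcription genes tested, 13 were called higher and 7 lower in attached cells, and 16 and 6 in floating cells. These were 52% and 28%, and 64% and 24%. Among all genes the shares were 29.5% and 32.8%, and 29.3% and 31.1%.

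**Figure D5:**
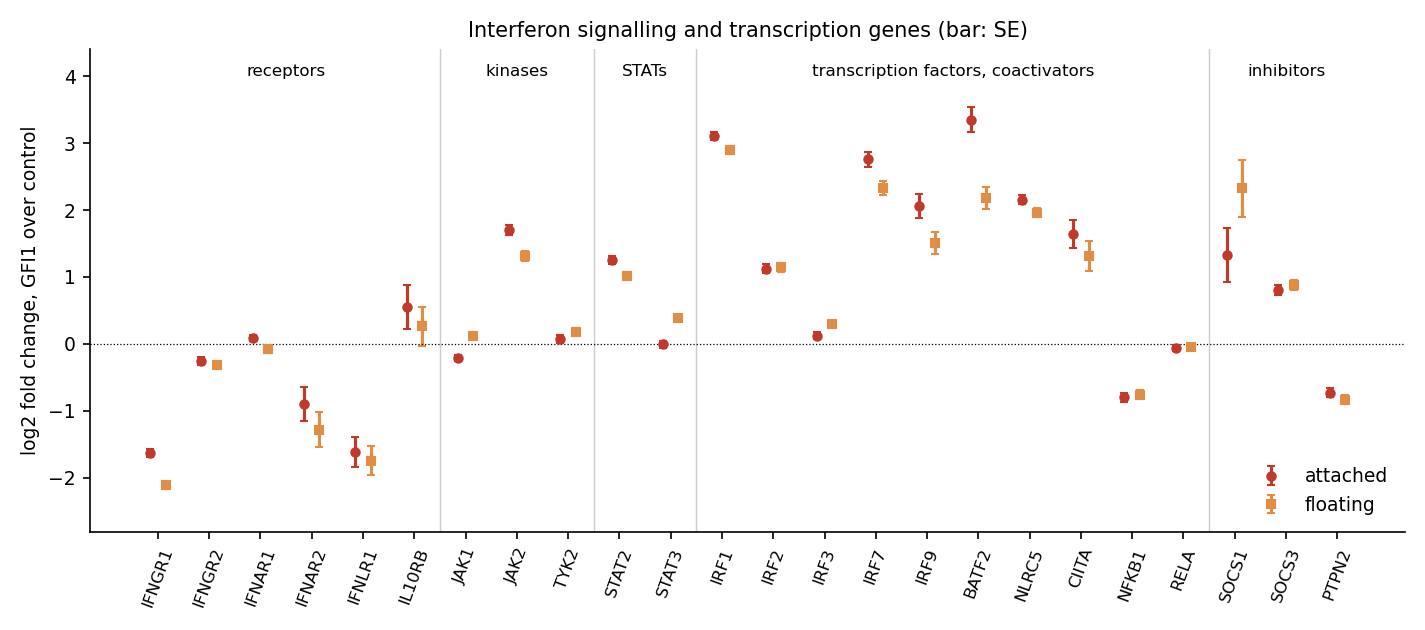
Log2 fold change (± SE) of GFI1-expressing over control cells for 24 genes of interferon signalling and transcription, ordered from receptors to inhibitors, in attached (circles) and floating cells (squares). The receptor chains IFNGR1, IFNAR2 and IFNLR1 lie below 0 and IRF1, IRF7, IRF9 and BATF2 well above it.

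With suspension the lists moved on a smaller scale, which can be tested. In control cells 13 of 41 type I genes were called higher and 4 lower (median 0.18, background 19.6% and 20.5%), and 11 and 4 of 30 interferon gamma genes (median 0.25). The type I count higher ran from 9 without attached control replicate 3 to 16 without floating GFI1 replicate 2, and from 10 to 15 over other settings. IFITM1, which blocks virus entry, rose by 1.62 ± 0.16 (edgeR adjusted p = 1.5e-08), and HLA-B, an MHC class I molecule, by 1.15 ± 0.12 (adjusted p = 3.84e-08). IFNGR1 and IFNGR2 rose by 0.43 ± 0.05 and 0.44 ± 0.06 and STAT2 by 0.30 ± 0.06, all called. IRF1 was at -0.03 ± 0.06 and did not pass the test.

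In GFI1-expressing cells, 1 of the type I genes was called higher and 15 lower with suspension (median -0.17, beside 16.3% of all genes lower), and of the interferon gamma genes 9 were higher and 8 lower (median -0.01). OAS3, of the same pathway as OAS1, fell by 0.58 ± 0.08 (edgeR adjusted p = 1.54e-06), IRF1 by 0.24 ± 0.04 and JAK2 by 0.35 ± 0.07, all called. IFITM1 was the gene that rose, by 0.30 ± 0.08. The count of type I genes called lower was 26 without floating GFI1 replicate 3, and it was 8, 6, 7 and 8 without floating GFI1 replicates 1 and 2 and attached GFI1 replicates 2 and 3. That of interferon gamma genes was 5 without floating GFI1 replicate 2 and 4, 5 and 5 without attached GFI1 replicates 1, 2 and 3. GBP3 and GBP4 had values of the same sign as most of these, at -0.19 and -0.31, and did not pass the test. 

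In the interaction, 13 of 41 type I genes and 7 of 30 interferon gamma genes were called lower and 0 of either list higher by edgeR, beside a background of 6.01% lower and 4.76% higher. DESeq2 called 12 and 7 lower and 0 higher, and at an unadjusted p under 0.05 1 type I and 2 interferon gamma genes were higher. The type I count was 8 without attached control replicate 3, attached GFI1 replicate 2, floating control replicate 1 or floating GFI1 replicate 1. Without floating GFI1 replicate 3 it was 19, and 1 interferon gamma gene was called higher. The interferon gamma count of genes lower was 4 without attached control replicate 3. IFITM1 was at -1.31 ± 0.18 (edgeR adjusted p = 1.85e-05), IFNGR1 at -0.48 ± 0.09 and BATF2 at -1.17 ± 0.28, so these differed between the states where no member was shown to.

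The proteins with which guanylate-binding proteins work were measured too. Of the 11 tested among 15 genes of inflammasomes and pyroptosis, 7 were called higher and 3 lower with GFI1 in attached cells (background 29.5% and 32.8%), and 6 and 3 in floating cells (background 29.3% and 31.1%). CASP1, the protease of the inflammasome, was at 5.25 ± 0.19 and 5.16 ± 0.20, and the cytokines it matures were lower, IL18 at -2.47 ± 0.09 and -2.57 ± 0.10 and IL1B at -1.65 ± 0.44 and -2.75 ± 0.45. GSDMD, the pore-forming protein it cleaves, was higher, at 1.04 ± 0.07 and 1.24 ± 0.07. Of the 6 genes for prenylation of CaaX proteins, which acts on GBP1, GBP2 and GBP5, 3 were called lower in attached and 4 in floating cells and none higher, beside the same background. ICMT, the last enzyme of that route, was the lowest, at -0.50 ± 0.05 and -0.37 ± 0.05.

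Other GTPases of the dynamin superfamily showed no common direction, with 6 of 17 called higher and 9 lower in attached cells and 5 and 6 in floating cells, where the background was 29.5% and 32.8%, and 29.3% and 31.1%. The extremes were MX1, an interferon-induced antiviral protein at 4.91 ± 0.17 in attached and 4.31 ± 0.18 in floating cells, and DNM3 at -1.38 ± 0.21 and -2.29 ± 0.21. The genes beside the cluster on chromosome 1 had values between -0.64 and 0.61 over both states. Of 8 tested, 1 was called higher and 1 lower in attached cells, PKN2 at 0.61 ± 0.05 and LRRC8B at -0.54 ± 0.08. In floating cells 5 were higher and 2 lower, with values from -0.64 (LRRC8B) to 0.52 (PKN2). The shares called higher and lower were 12.5% and 12.5% in attached and 62.5% and 25% in floating cells. Among all genes they were 29.5% and 32.8%, and 29.3% and 31.1%.

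Over the 12 libraries, log2 CPM of GBP1 and GBP2 went together (Pearson r = 0.915), as did GBP3 and GBP4 (0.987), while GBP1 and GBP3 went in opposite directions (-0.926). The libraries share the split by GFI1, so these values describe that split and carry no p. Among 13757 protein-coding genes, those most like GBP1 were KIAA0930 (r = 0.977), CPLX2 (0.974), LSS (0.970), NCBP2-AS2 (0.970) and AKAP1 (0.968). Those most like GBP3 were SORL1 (0.998), ZNF827 (0.997), PRDM11, PRRT3 and NLRC5 (0.996 each). Of these, NLRC5 was the gene that also stood on the interferon lists.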

How the data were processed

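RNA-Seq was performed on 12 libraries of A549 cells in 4 groups of 3, and groups were taken from the sample labels. The deposited values are raw counts per gene, which the authors made from reads aligned to hg38. The study's methods name Hisat2 and featureCounts, whereas the submitters' processing notes name Bowtie2 and HTSeq, so which pair made the table, and whether strand was used, is unsure. Reads from near-identical copies may have been split or dropped in this step.

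The analysis used edgeR 4.0.16 under R 4.3.3, with low genes removed by filterByExpr (minimum count 10, minimum total 15), TMM scaling and a fit with 4 group means by the quasi-likelihood method on all 12 libraries. Two-sided p values received the Benjamini-Hochberg adjustment over 17829 genes, and calls were made at 0.05 or less. The fit was tested on simulated data. Levels are TMM-scaled CPM, and comparisons between genes use CPM per kilobase of the gene length in the table. Ratios of counts have exact binomial 95% intervals. Motifs were searched on both strands of RefSeq promoter windows, and coding identity was computed from aligned GENCODE v44 transcripts.

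The members and the lists (interferon ligands, signalling, type I and interferon gamma responses, prenylation, inflammasome partners, dynamin superfamily, neighbours, epithelial and blood cell markers) were chosen with earlier results of these data known. Named genes are the members and their relatives, the signalling genes and neighbours that a sentence needs, the highest or lowest of the other lists, and the 5 genes most like GBP1 and GBP3 over the libraries. EPSTI1, GSDMD and the genes named for the interaction beside the members were picked after their values were seen. Alternatives were DESeq2 1.42.0, other scalings, filters and dispersion settings, a fit on the compared groups alone, a replicate block and leaving out each library. The authors' comparisons were not used.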

Additional observations from a re-analysis of the deposited data

Results flagged for a closer look

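The interaction term of edgeR, for a GFI1 effect that differs between floating and attached cells, was called for 8 of the interferon genes that the report names or plots one by one. It was called for none of the members, which does not show that their effects were equal. The interval for GBP1 ran from -0.66 to 2.5. The difference, floating minus attached on the log2 scale, was -1.17 for BATF2 (adjusted p = 0.00578), -1.31 for IFITM1 (adjusted p = 1.85e-05), -0.48 for IFNGR1 (adjusted p = 0.000376), -0.86 for HLA-B (adjusted p = 0.000125), -0.61 for OAS1 (adjusted p = 0.00291), -0.39 for JAK2 (adjusted p = 0.0205), 0.33 for JAK1 (adjusted p = 0.000838) and 0.40 for STAT3 (adjusted p = 0.000128). Leaving out single libraries gave adjusted p values from 0.00630 to 0.0679 for JAK2, with values from -0.45 to -0.34, and the other genes stayed called without any library. With robust empirical Bayes OAS1 was not called (adjusted p = 0.0972).

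GBP7 and the pseudogene GBP1P1 were too low to enter the test, but gave more counts in GFI1-expressing than in control libraries. GBP7 had 28 counts over the 6 GFI1-expressing and 4 over the 6 control libraries, a ratio of 6.27 with a counting interval from 2.20 to 24.6. GBP1P1 had 20 counts over the GFI1-expressing libraries, between 1 and 5 in each, and 0 in all control libraries. The part of reads from GBP2, GBP4 or GBP1 in these counts was not tested.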

How the results depend on the processing

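The directions of GBP1, GBP2 and GBP3 with GFI1 were the same under each alternative that could be fitted, and GBP1 could not be fitted with at least 10 counts in every library, which removes it. The rise of GBP2 with suspension in control cells stayed called throughout, with adjusted p from 0.00137 to 0.0128 over other settings and 0.00309 to 0.0366 without single libraries. The bound for GBP4 in attached cells was 28.1 with upper quartile scaling, 30.0 with library size alone and 26.4 to 27.6 without single libraries. GBP3 with GFI1 in floating cells was 2.65 with library size alone. GBP3 with suspension in GFI1-expressing cells was -0.19 with adjusted p = 0.0292 in a fit on the compared groups alone, and -0.22 to -0.15 without single libraries; in control cells it was -0.049 to 0.19. Without single libraries, GBP1 and GBP2 with GFI1 in floating cells were -2.48 to -1.42 and -2.77 to -2.32, and with suspension in GFI1-expressing cells -0.28 to 0.76 and -0.0060 to 0.43; the cause was not tested. The type I count in the interaction was 8 with robust empirical Bayes, and the interferon gamma count lower with suspension in GFI1-expressing cells was 5 under either other filter.

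Same-numbered libraries did not deviate together (18 pairs, r from -0.031 to 0.031), and 3 of 12 libraries correlated best with their own number. With the replicate block, 11054 genes were called for GFI1 in attached cells (11102 without it), and GBP2 with suspension in control cells was at 0.54 (adjusted p = 0.00874), so no call on a member changed. Depth limits GBP1 in GFI1-expressing cells, GBP4 in control cells and GBP5 everywhere.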
